A study of Mus musculus with 10 samples.

Results

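mRNA levels of 6 genes of the adherens junction were followed in cultured mouse keratinocytes, namely Cdh1, Cdh3, Ctnna1, Ctnnb1, Ctnnd1 and Vcl. They were chosen by name, as the 6 genes of 18193 measured whose probe sets carry 1 of these symbols and no other, which gave 15 of the 45101 probe sets of the array. These members and the gene lists used below were chosen with earlier results of these data known. Counts of genes that passed in them are therefore no independent test. The adherens junction is the belt of cell contacts in which cadherins of neighbouring cells bind each other in the presence of calcium. Inside the cell, p120 catenin (Ctnnd1) and beta-catenin (Ctnnb1) bind the cadherin tail, alpha-catenin (Ctnna1) links beta-catenin to actin, and vinculin (Vcl) strengthens that link under tension. In the epidermis E-cadherin (Cdh1) is found in all living layers, P-cadherin (Cdh3) is known as a cadherin of the basal layer, and raising calcium in keratinocyte cultures is known to let these junctions form.

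mRNA levels were measured with 10 Affymetrix arrays of primary keratinocytes of newborn mice, whose strain the labels give as FVB for all 10 samples, and each value is a log2 signal as deposited. The 2 undifferentiated samples were kept at 0.05 mM calcium and the 4 differentiated samples at 0.4 mM calcium for 2 days. The 2 samples labelled A-C/EBP were differentiated in the same medium after induction of A-C/EBP, a dominant negative protein that pairs with proteins of the C/EBP family so that they cannot bind DNA. The transgene was under tetracycline control and was switched on by taking doxycycline away. The 2 samples labelled 5-AZA were differentiated with 1 µM of 5-azacytidine, an inhibitor of DNA methylation. The methods name wild type mice and mice expressing A-C/EBP as sources of cells. Neither the labels nor the methods say whether the differentiated controls carried the transgene or whether replicates came from separate cultures, and the spread behind each p-value may therefore be a technical one. The 4 differentiated arrays serve in each of the 3 main comparisons.

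The arrays had medians of 4.64 to 4.78 over all probe sets, and the number of arrays limits the precision. The keratinocyte label was checked against Krt5, Krt14, Trp63, Itga6, Itgb4 and Sfn, whose summed level, given as their mean, lay between 9.84 and 11.40 and was highest in the undifferentiated arrays (11.35 and 11.40). The melanocyte genes Tyrp1, Dct, Pmel and Mlana lay above the array median in all 10 arrays (8.63 to 11.33), Tyr lay below it in 1, and the mean of these 5 was 9.12 and 9.33 in undifferentiated, 8.60 to 9.19 in differentiated, 8.95 and 9.53 in A-C/EBP and 9.33 and 9.38 in 5-AZA arrays. The part of melanocytes in the results was not tested. The mean of 6 fibroblast markers lay between 4.57 and 5.55. Of these, Col1a1 (6.19 to 8.36) and Col1a2 (5.12 to 6.83) lay above the array median in all 10 arrays. Lum lay below it in all 10, Pdgfra in 9, Col3a1 in 6 and Dcn in 3. The part of fibroblasts in the results was not tested. Markers of immune cells, endothelium and Merkel cells had means of 3.98 to 5.01. Among them the immune genes Cd68 (6.07 to 7.06) and Cd3e (5.385 to 5.81) and the endothelial Kdr (5.28 to 5.71) lay above the array median in all 10 arrays. The Merkel cell gene Atoh1 lay below it in 6 and the others in all 10. The part of these cell types in the results was not tested. A-C/EBP replicate 2 stood apart from the other arrays in its hybridization controls (11.3 against 9.03 to 10.6), in Xist (9.93 against 5.84 to 8.27) and in the Y-linked Eif2s3y (3.74 against 5.40 to 6.03). In samples of many cells, fewer cells of a type and less RNA per cell cannot be told apart.

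In mouse genome build GRCm38.p6, Cdh3 (chromosome 8, 106510852 to 106556911) and Cdh1 (chromosome 8, 106603350 to 106670247) are neighbours. Ctnnb1 lies on chromosome 9 (120933400 to 120960507), Ctnnd1 on chromosome 2 (84587096 to 84658977) and Vcl on chromosome 14 (20929383 to 21033676). Because CREB, C/EBPβ and c-Jun are the factors of the study and A-C/EBP blocks DNA binding of the C/EBP family, the promoters of the members were searched for their motifs. RefSeq promoters, which hold 250 bases before and 50 after a start, were at hand for 3 of the 6 members, with 5 entries. The entries were searched on both strands for TTGCGCAA (C/EBP), TGACGTCA (the cAMP response element of CREB), TGACTCA (AP-1), TGACG (the core of the cAMP response element, which also lies within TGACGTCA) and the CArG box, the site of serum response factor, which acts on many genes of the actin cytoskeleton. Of these, 1 entry of each gene held a match, shown here 5′ to 3′ on the strand of the gene with the matches in capitals.

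Vcl, chr14:20929148-20929447, plus strand: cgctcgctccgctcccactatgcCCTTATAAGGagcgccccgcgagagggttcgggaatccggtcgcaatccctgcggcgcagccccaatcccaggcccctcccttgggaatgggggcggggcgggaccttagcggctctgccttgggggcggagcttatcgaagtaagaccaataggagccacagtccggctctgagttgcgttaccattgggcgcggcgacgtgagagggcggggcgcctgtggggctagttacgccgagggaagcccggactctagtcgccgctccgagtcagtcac
Ctnnd1, chr2:84658928-84659227, minus strand: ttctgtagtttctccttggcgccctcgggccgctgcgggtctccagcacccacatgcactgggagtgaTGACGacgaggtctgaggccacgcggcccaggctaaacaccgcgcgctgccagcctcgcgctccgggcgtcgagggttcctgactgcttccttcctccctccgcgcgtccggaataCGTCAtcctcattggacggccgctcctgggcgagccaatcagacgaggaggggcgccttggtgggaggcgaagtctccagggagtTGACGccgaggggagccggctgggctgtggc
Ctnnb1, chr9:120933328-120933627, plus strand: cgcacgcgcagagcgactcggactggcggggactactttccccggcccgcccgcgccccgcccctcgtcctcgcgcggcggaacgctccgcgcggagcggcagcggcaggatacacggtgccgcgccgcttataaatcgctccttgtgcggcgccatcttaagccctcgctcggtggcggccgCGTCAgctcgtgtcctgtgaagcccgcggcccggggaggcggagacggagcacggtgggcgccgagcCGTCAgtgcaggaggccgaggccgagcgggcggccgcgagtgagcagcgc

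The capitals of Vcl are a CArG box at -227 to -218 from the start of the transcript, a motif that 1.63% of 32851 mouse promoters of this length hold. The capitals of Ctnnd1 and Ctnnb1 are TGACG or its reverse complement CGTCA, with 3 matches for Ctnnd1 and 2 for Ctnnb1, and 20.8% of promoters hold it. None of the 5 entries held TTGCGCAA, TGACGTCA or TGACTCA, which occur in 0.183%, 1.79% and 5.2% of promoters. A match describes the letters only and is not shown to be a binding site.

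Upon differentiation Cdh3 fell and no other member passed the test. Cdh3, the P-cadherin gene, fell by 0.82 on the log2 scale, to 0.567 of its undifferentiated level, as the mean of 2 probe sets. Cdh1, the E-cadherin gene, and the genes of the proteins that link cadherins to actin had differences between -0.23 and 0.32. The median difference of the 6 members was 0.10, against -0.01 over all genes. By limma with Benjamini-Hochberg adjustment over all genes, 1 of 6 members passed at an adjusted p under 0.05, where 15.8% of all genes did. The plot of levels by array shows the members in the 4 conditions.

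**Figure D1:**
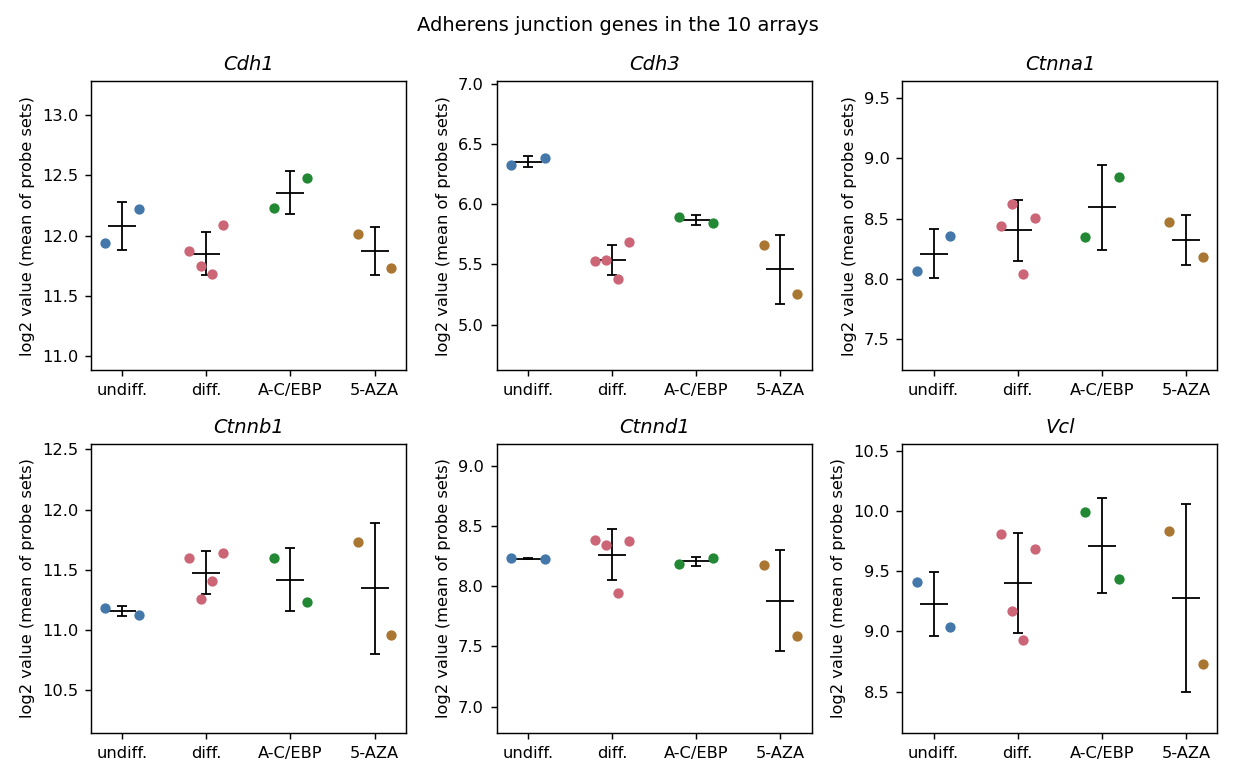
Log2 level of each member (mean of its probe sets) in each array (points, in order of replicate number from left to right) of undifferentiated (n = 2), differentiated (n = 4), A-C/EBP (n = 2) and 5-AZA (n = 2) keratinocytes, with the mean (bar) and SD (whiskers); each panel spans the same number of log2 units. For Cdh3 the undifferentiated arrays (6.32 and 6.39) lie above all 8 others.

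The mean level of Cdh3 was 6.32 and 6.39 in the undifferentiated arrays and 5.53, 5.54, 5.38 and 5.69 in the differentiated arrays. It was 5.90 and 5.84 in the A-C/EBP arrays and 5.66 and 5.26 in the 5-AZA arrays. Both undifferentiated arrays were higher than every other array, and the A-C/EBP arrays were higher than every differentiated and 5-AZA array. The log2 difference between differentiated and undifferentiated keratinocytes was -0.82 (standard error 0.13, 95% interval -1.10 to -0.54, n = 4 against 2, limma adjusted p = 0.00173). It lay between -1.24 and -0.77 over 21 alternative settings, which include the omission of each array in turn, and passed in all of them.

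The probe sets of Cdh3 moved by unequal amounts. Probe set 1426673_at had 8.73 and 8.68 in undifferentiated, 7.51, 7.35, 7.31 and 7.70 in differentiated, 7.99 and 7.80 in A-C/EBP and 7.67 and 6.80 in 5-AZA arrays. It fell by 1.24 upon differentiation (standard error 0.21, limma adjusted p = 0.00479 over all 45037 probe sets that are no controls), to 0.425 of the undifferentiated level. Probe set 1441255_at lay below the array median in all 10 arrays (3.46 to 4.10) and may be no more than background, and its log2 difference was -0.40 (standard error 0.11, adjusted p = 0.0514). The difference of Cdh3 is therefore -1.24 where a gene is read from its brightest probe set and -0.82 where both are averaged. Among the 15 probe sets of the members, 1 passed upon differentiation, where 10.6% of all probe sets did.

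**Figure D2:**
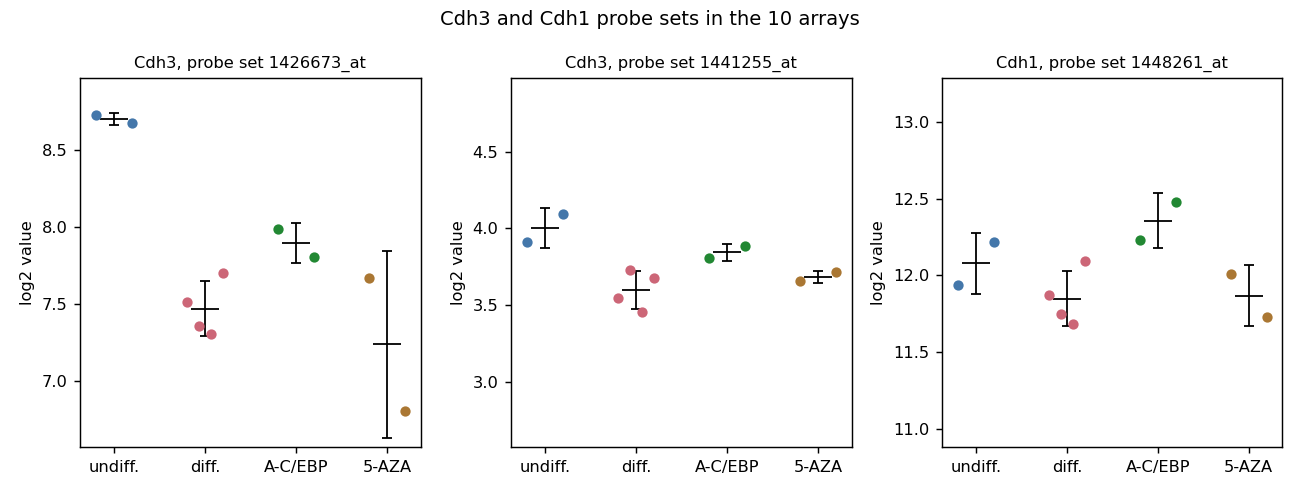
Log2 level of the 2 probe sets of Cdh3 and the single probe set of Cdh1 in each array (points, in order of replicate number), with the mean (bar) and SD (whiskers) of each condition; each panel spans the same number of log2 units. The undifferentiated arrays lie at 8.73 and 8.68 for 1426673_at, against 6.80 to 7.99 in the other arrays.

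E-cadherin is read from the single probe set 1448261_at. Cdh1 had 11.94 and 12.22 in undifferentiated arrays and 11.87, 11.75, 11.68 and 12.09 in differentiated arrays, which overlap. The A-C/EBP arrays, at 12.23 and 12.48, were the highest of the 10, and the 5-AZA arrays had 12.01 and 11.73. The log2 difference upon differentiation was -0.23 (standard error 0.15, 95% interval -0.56 to 0.10, limma adjusted p = 0.416). This interval does not reach the estimate of Cdh3 (-0.82), but it overlaps the 95% interval of Cdh3 (-1.10 to -0.54). Cdh3 minus Cdh1 within an array was compared directly, since both are classical cadherins and their genes are neighbours. Its mean changed from -5.73 (SD 0.15, n = 2) in undifferentiated to -6.32 (SD 0.08, n = 4) in differentiated keratinocytes, a change of -0.59, with no overlap. The exact two-sided permutation test gave p = 0.0667, the smallest that 15 regroupings of 2 and 4 arrays allow, so that this design cannot reach 0.05. With 1426673_at alone the change was -1.01 (exact permutation p = 0.0667). With A-C/EBP the change against differentiated controls was -0.17 (exact permutation p = 0.267) and with 5-AZA -0.09 (exact permutation p = 0.333).

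The catenins had differences upon differentiation that did not pass. Ctnnb1, which encodes beta-catenin, the linker that also acts with TCF factors in Wnt signalling, had 11.18 and 11.13 in undifferentiated arrays and 11.60, 11.26, 11.41 and 11.64 in differentiated arrays. All differentiated arrays were higher than both undifferentiated ones, with a log2 difference of 0.32 (standard error 0.20, 95% interval -0.13 to 0.77, adjusted p = 0.397). Ctnnb1 and Cdh3 were the 2 of 6 members whose arrays did not overlap, where this was the case for 34.1% of all genes. The probe sets of Ctnnb1 had differences of 0.07 (1420811_a_at), 0.46 (1430533_a_at) and 0.43 (1450008_a_at), and none passed. The A-C/EBP arrays had 11.60 and 11.23, within the range of the differentiated arrays or just below it, and the 5-AZA arrays 11.73 and 10.96, which are the highest and the lowest value of the gene.

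Ctnna1, which encodes alpha-catenin and lies on chromosome 18 (35118902 to 35254776), had 8.07 and 8.36 in undifferentiated and 8.44, 8.63, 8.04 and 8.51 in differentiated arrays, with a difference of 0.19 (standard error 0.19, 95% interval -0.23 to 0.62, adjusted p = 0.653). Its 4 probe sets behaved unlike each other. Probe sets 1437807_x_at (11.98 to 12.63) and 1448149_at (11.98 to 12.81) each spanned less than 1 log2 unit, and 1437275_at (2.96 to 3.24) lay below the array median in all 10 arrays. Probe set 1436631_at spanned 4.96 to 7.08 and was highest in undifferentiated replicate 2 (6.35), differentiated replicate 2 (7.03) and A-C/EBP replicate 2 (7.08). Each of these 3 arrays stands above the other arrays of its own condition there. The hybridization controls of these arrays were also the highest of their condition (10.1, 10.4 and 11.3), while of the 5-AZA pair the array with the higher controls (10.6 against 9.99) had the lower value of 1436631_at (5.41 against 5.49). The part of what the hybridization controls measure in this probe set was not tested.

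Ctnnd1, which encodes p120 catenin, a protein that keeps cadherins at the cell surface, had 8.23 and 8.22 in undifferentiated and 8.38, 8.34, 7.95 and 8.38 in differentiated arrays. The difference was 0.03 (standard error 0.17, adjusted p = 0.958). Its probe sets had differences of -0.03 (1422450_at), -0.08 (1437448_s_at) and 0.22 (1445830_at), the last of which lay below the array median in 4 arrays. Vcl, which encodes vinculin, had 9.41 and 9.04 in undifferentiated and 9.81, 9.17, 8.93 and 9.69 in differentiated arrays. Its difference was 0.17 (standard error 0.33, 95% interval -0.56 to 0.91, adjusted p = 0.859), the widest interval of the 6 members. The probe sets of Vcl spanned 10.26 to 11.43 (1416156_at) and 6.99 to 8.60 (1416157_at), and their differences were 0.0004 and 0.35.

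With A-C/EBP no member passed the test against differentiated controls. The median difference of the 6 members was 0.25, against 0.01 over all genes. Cdh1 was higher by 0.51 (standard error 0.15, 95% interval 0.18 to 0.84, n = 2 against 4, limma adjusted p = 0.136) and Cdh3 by 0.33 (standard error 0.13, 95% interval 0.05 to 0.62, adjusted p = 0.263). These 2 members had an unadjusted p under 0.05 by limma, as had 2469 of all 18193 genes. By the methods' t-test 2 members had an unadjusted p under 0.05, of which 0 passed after Benjamini-Hochberg adjustment. The arrays of Cdh1 and Cdh3 did not overlap with the controls, which holds for 21.4% of all genes, and 2.06% of all genes passed. Of the probe sets of the members 0 of 15 passed with limma, against 0.999% of all. By limma 1 had an unadjusted p under 0.05, and the share of all probe sets at that threshold is not given here. Ctnna1 differed by 0.19 (standard error 0.19), Ctnnb1 by -0.06 (0.20), Ctnnd1 by -0.06 (0.17) and Vcl by 0.31 (0.33), each by less than its standard error. Ctnna1 had 8.34 and 8.84, Ctnnd1 8.18 and 8.23 and Vcl 9.99 and 9.43 in the A-C/EBP arrays, which overlap with the controls for each of them. Without A-C/EBP replicate 2, the array that stood apart, the difference of Cdh1 was 0.38 (adjusted p = 0.703) and that of Cdh3 0.36 (adjusted p = 0.664). In the same comparison the 6 keratinocyte markers all had differences above 0, with a median of 0.36 and the highest in Itga6 (1.18, adjusted p = 0.134), and 1 of the 6 fibroblast markers did, with a median of -0.40, and none of the 12 passed. The mean level of the keratinocyte markers was 10.81 and 10.88 in A-C/EBP and 10.11 to 10.60 in differentiated arrays, and that of the fibroblast markers was 4.57 and 4.98 against 4.81 to 5.55. All 5 melanocyte and all 5 immune cell markers also had differences above 0, with medians of 0.28 and 0.10. Of the 4 endothelium and the 4 Merkel cell markers 0 did. The part of any of these markers in the values of Cdh1 and Cdh3 was not tested.

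**Figure D3:**
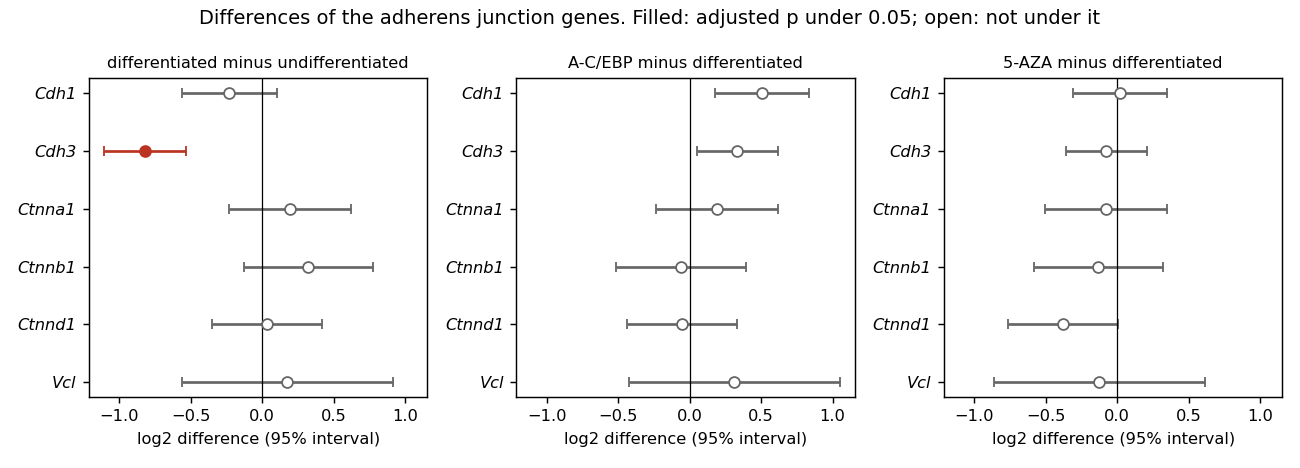
Log2 difference (points) with its 95% interval (bars) of each member in differentiated against undifferentiated keratinocytes, A-C/EBP against differentiated and 5-AZA against differentiated, from the limma fit of all 10 arrays; filled points have an adjusted p under 0.05. Cdh3 upon differentiation (-0.82) is the only filled point.

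With 5-AZA none of the 6 members passed, where 0.286% of all genes did. None had an unadjusted p under 0.05 by the methods' t-test or by limma, where 1655 of all 18193 genes had one by limma. Their median difference was -0.10, against 0.04 over all genes. Nor did any of their 15 probe sets pass, against 0.0488% of all probe sets, and 0 had an unadjusted p under 0.05. The differences were 0.02 for Cdh1 (standard error 0.15, 95% interval -0.31 to 0.35), -0.07 for Cdh3 (standard error 0.13, 95% interval -0.36 to 0.21), -0.08 for Ctnna1, -0.13 for Ctnnb1 and -0.12 for Vcl. Ctnnd1 had -0.38 (standard error 0.17, 95% interval -0.77 to 0.0043, adjusted p = 0.555), with 8.18 and 7.58 in the 5-AZA arrays. Ctnna1 had 8.47 and 8.18 in them. No member had arrays that did not overlap with the controls, which 16.4% of all genes had. The spread between the 5-AZA arrays limits these values, since Vcl had 9.83 and 8.72 and Ctnnb1 11.73 and 10.96 in them.

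Some arrays were the lowest of their condition for most members. How many of all genes were lowest in these arrays was not counted, so that this is not shown to be particular to the members. 5-AZA replicate 2 was the lower of its pair for 6 of 6 members, and differentiated replicate 3 was the lowest of its 4 arrays for 5 of 6, all but Ctnnb1. In the undifferentiated and the A-C/EBP pairs each array was the lower one for 3 members. Without 5-AZA replicate 2, the differences of Ctnnb1 and Vcl between 5-AZA and differentiated keratinocytes changed sign, to 0.25 and 0.43. What sets these arrays lower was not tested.

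Over the 4 conditions, the order of the mean levels from high to low was A-C/EBP, undifferentiated, 5-AZA and differentiated for Cdh1. It was undifferentiated, A-C/EBP, differentiated and 5-AZA for Cdh3. For Ctnna1 and Vcl it was A-C/EBP, differentiated, 5-AZA and undifferentiated, and for Ctnnb1 differentiated, A-C/EBP, 5-AZA and undifferentiated. For Ctnnd1 it was differentiated, undifferentiated, A-C/EBP and 5-AZA. No pair of neighbours in any of these orders passed the test. The closest was Cdh3 between undifferentiated and A-C/EBP keratinocytes, with a log2 difference of 0.48 (standard error 0.15, limma adjusted p = 0.0515), a call that was made in 9 of 21 alternative settings, among them the brightest probe set (adjusted p = 0.0452), and also without differentiated replicate 3 (adjusted p = 0.0479) or either 5-AZA array (adjusted p = 0.0256). Against undifferentiated keratinocytes, 15.6% of all genes passed with A-C/EBP and 16.1% with 5-AZA. In the latter comparison Cdh3 fell by 0.89 (standard error 0.15, adjusted p = 0.00248) and was the 1 member of 6 that passed. Between A-C/EBP and 5-AZA keratinocytes 0 of 6 members passed, where 3.19% of all genes did. By limma 2 members had an unadjusted p under 0.05 there. The share of all genes at that unadjusted threshold is not given here, so that this count is not shown to be particular to the members.

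For each member, the genes with the most similar pattern over the 10 arrays were found by the root mean square difference of log2 values, centred per gene, among the brighter 60% of genes. For Cdh3 these were D16Ertd472e (0.104), Hnrnpll (0.107) and Rapgef5 (0.107), where the median over all genes compared was 0.401. For Cdh1 they were Pafah1b1 (0.084), Tpp1 (0.093) and Ocel1 (0.097), with a median of 0.325. For Ctnna1 they were Nrip1 (0.086), Ric1 (0.110) and Kdm5b (0.113), and for Ctnnb1 Sox4 (0.095), Rnf146 (0.097) and Eif2ak2 (0.101). For Ctnnd1 they were Apbb2 (0.100), Dmd (0.107) and Lgmn (0.111). For Vcl, which varied most within conditions, they were Glg1 (0.160), Shroom4 (0.163) and Herpud2 (0.163). None of the members was among the nearest 3 of another member.

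Other proteins of the adherens junction moved in both directions upon differentiation. Of 20 measured, 5 rose, 3 fell and 12 did not pass, where 6.64% of all genes rose and 9.14% fell. Their median difference was -0.05, against -0.01 over all genes. Nectin3, an immunoglobulin-like adhesion receptor of these junctions, rose from 5.11 and 4.74 to between 6.33 and 6.74, a log2 difference of 1.60 (standard error 0.16, adjusted p = 0.00018), and by 3.06 where its brightest probe set is read. Lmo7, which binds afadin and alpha-actinin, rose by 1.26 (standard error 0.13, adjusted p = 0.000193). Plekha7, which ties p120 catenin to microtubules, rose by 1.02 (standard error 0.13, adjusted p = 0.000543), and by 1.80 with its brightest probe set. Camsap3, its microtubule partner, fell by 0.88 (standard error 0.19, adjusted p = 0.00973), so that these partners moved in opposite directions. Pkp4, a relative of p120 catenin, fell by 0.98 (standard error 0.15, adjusted p = 0.0014). Ctnnd2, another relative, rose by 0.58 (adjusted p = 0.00298) at levels below the array median in all 10 arrays, and had 0.18 (adjusted p = 0.468) with its brightest probe set. Nectin4, another nectin, with 1.08 (adjusted p = 0.0111), and Ctnnal1, a relative of alpha-catenin, with -0.80 (adjusted p = 0.0434), passed as well and are named after their values were seen. Ctnnal1 had 7.62 and 6.76 in undifferentiated arrays and 6.16 to 6.61 in differentiated arrays. Its difference was -0.37 (adjusted p = 0.453) without undifferentiated replicate 1 and -1.24 without replicate 2, and its call ended without 8 of the 10 arrays. The call of Nectin4 ended without undifferentiated replicate 1 (1.12) or 2 (1.03). The call of Camsap3 ended without undifferentiated replicate 1 (-0.90) or 2 (-0.86), and 5 of the 20 genes passed without undifferentiated replicate 1. Nectin2 (0.48, adjusted p = 0.306), the afadin gene Afdn (0.25, adjusted p = 0.238) and the plakoglobin gene Jup (-0.27, adjusted p = 0.599) did not pass and are also named after their values were seen.

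**Figure D4:**
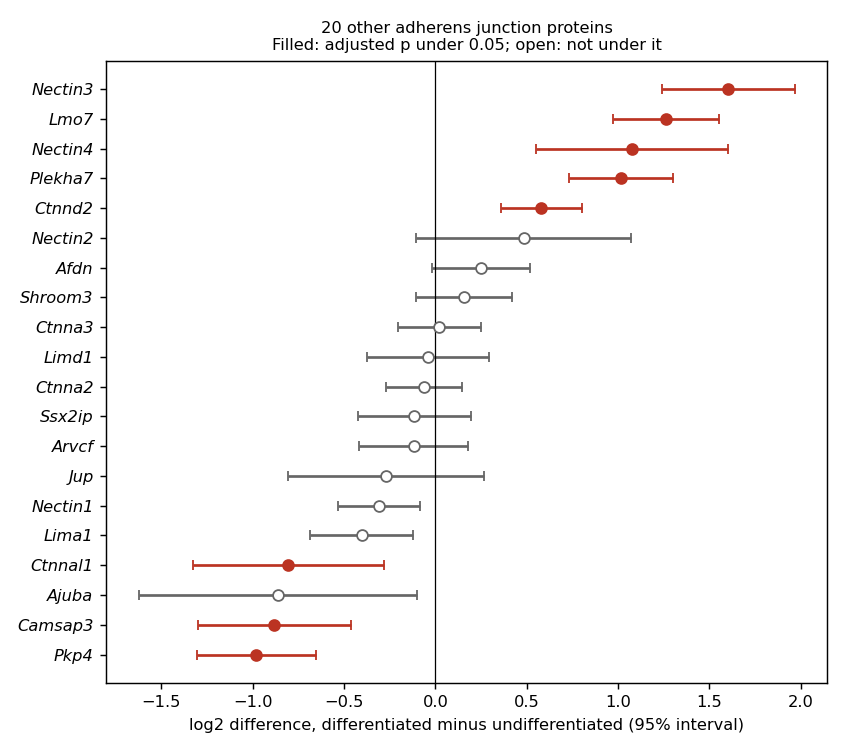
Log2 difference (points) with its 95% interval (bars) of 20 other genes of adherens junction proteins between differentiated and undifferentiated keratinocytes, from the limma fit of all 10 arrays; filled points have an adjusted p under 0.05. Nectin3 (1.60), Lmo7 (1.26), Nectin4 (1.08), Plekha7 (1.02) and Ctnnd2 (0.58) lie above 0 and Ctnnal1 (-0.80), Camsap3 (-0.88) and Pkp4 (-0.98) below it.

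Among 11 other cadherins 0 passed upon differentiation by limma, where 15.8% of all genes did, and 0 had an unadjusted p under 0.05. Of the 11, 8 lay below the array median in all 10 arrays and Cdh2 in 5, so that their values may be no more than background. Their differences lay between -0.54 and 0.33, with a median of 0.05. Cdh2, the N-cadherin gene, had -0.54 (standard error 0.44, adjusted p = 0.549). Of 13 regulators of E-cadherin transcription, Snai2, which encodes the repressor Slug, fell by 1.25 (standard error 0.10, adjusted p = 7.49e-05), from 10.71 and 10.48 to between 9.28 and 9.40. Cdh1 itself had -0.23 and did not pass, and a relation between Snai2 and Cdh1 was not tested. Ovol2, a factor of epithelial identity, rose by 0.48 (adjusted p = 0.0265), and 11 did not pass. Thus 1 of the 13 rose and 1 fell, where 6.64% of all genes rose and 9.14% fell. The count is near that of all genes. The median of the 13 was -0.02. The call of Ovol2 ended without undifferentiated replicate 1 (0.59) or 2 (0.37) and without differentiated replicate 1 (0.49) or 3 (0.43), and that of Snai2 held without each of the 10 arrays in turn.

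Of 16 vinculin partners and actin linkers, 3 fell, none rose and 13 did not pass, with a median of -0.16, where 9.14% of all genes fell and 15.8% passed in either direction, so that the count is near that of all genes. Enah, an actin filament elongation factor of the Ena/VASP family, fell by 0.97 (standard error 0.12, adjusted p = 0.000433), Pxn, the focal adhesion adaptor paxillin, by 1.00 (standard error 0.27, adjusted p = 0.0293) and Evl, another Ena/VASP protein, by 0.49 (adjusted p = 0.0499). The call of Enah held without each array in turn. That of Pxn ended without undifferentiated replicate 1 (-0.73) or differentiated replicate 2 (-0.92) or 3 (-0.84), and that of Evl without 7 of the 10 arrays.

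Beta-catenin has partners outside the junction. Of 15 genes of its destruction complex and of its nuclear partners, Bcl9, a coactivator, fell by 0.39 upon differentiation (adjusted p = 0.0174), and of 11 Wnt target genes, Ccnd1, the gene of a G1 cyclin, fell by 1.45 (standard error 0.39, limma adjusted p = 0.0319). The call of Bcl9 ended without undifferentiated replicate 1 (-0.42) or 2 (-0.35), and that of Ccnd1 without undifferentiated replicate 1 (-1.27) or 2 (-1.62) or differentiated replicate 1 (-1.51) or 4 (-1.52). Of 15 genes of cadherin turnover and shedding, the receptor phosphatase Ptprk rose by 0.62 (adjusted p = 0.0484), a call that ended without 7 of the 10 arrays. With A-C/EBP, Bcl9 rose by 0.42 (adjusted p = 0.0488), a call lost in 18 of 21 alternative settings and without any 1 of the 10 arrays. The medians of the 3 lists upon differentiation were -0.06, -0.26 and 0.06, and 14, 10 and 14 of their genes did not pass. Thus 1 gene of each list passed, where 15.8% of all genes did, with 6.64% that rose and 9.14% that fell. Of the 101 genes of these 7 lists, 1 passed with A-C/EBP, where 2.06% of all genes did, and 16 had an unadjusted p under 0.05 by limma, as had 2469 of all 18193 genes. With 5-AZA 0 of the 101 passed, where 0.286% of all genes did, and 11 had an unadjusted p under 0.05, as had 1655 of all genes. The medians of the lists lay between -0.04 and 0.21 with A-C/EBP and between -0.09 and 0.13 with 5-AZA. Bcl9 and Ovol2 lay below the array median in 2 arrays each and Nectin3 in 1.

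Of the 6 keratinocyte markers that served to check the cells, 4 fell upon differentiation and none rose, where 9.14% of all genes fell. These were Trp63, the p63 regulator of basal cells (-1.42, adjusted p = 0.00256), Itga6 (-1.61, adjusted p = 0.00947) and Itgb4 (-1.38, adjusted p = 0.0216), the integrin subunits of hemidesmosomes, and the basal keratin Krt5 (-0.75, adjusted p = 0.0291). Krt14, the keratin that pairs with Krt5 in basal cells, had -0.05 (adjusted p = 0.945) and Sfn had -0.60 (adjusted p = 0.11), and neither passed. Of the 6, 1 passed without undifferentiated replicate 1, where the calls of Itga6 (-1.52), Itgb4 (-1.12) and Krt5 (-0.74) ended, and 1 without replicate 2 (Itga6 -1.71, Itgb4 -1.64 and Krt5 -0.75 in the calls that ended). That of Krt5 also ended without differentiated replicate 2 (-0.70) or 3 (-0.64), and that of Trp63 held without each array in turn. The mean level of the 6 was 11.35 and 11.40 in undifferentiated, 10.11 to 10.60 in differentiated, 10.81 and 10.88 in A-C/EBP and 9.84 and 10.63 in 5-AZA arrays. Their part in the fall of Cdh3 was not tested. Of the 5 melanocyte markers, Tyr fell by 0.51 (adjusted p = 0.0499), a call that ended without 7 of the 10 arrays, and 0 of the 19 markers of fibroblasts, immune cells, endothelium or Merkel cells passed by limma, with 1 at an unadjusted p under 0.05. With A-C/EBP and with 5-AZA 0 of the 30 markers passed, and 2 had an unadjusted p under 0.05 in each.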

How the data were processed

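mRNA levels were measured with Affymetrix mouse whole-genome expression arrays in cultured keratinocytes. The 10 samples were grouped by their titles into 2 undifferentiated, 4 differentiated, 2 A-C/EBP and 2 5-AZA samples. Per the submitters' processing notes, the authors used RMA and Affymetrix Expression Console, with no version named. RMA corrects for background, brings the arrays onto a common scale and summarizes a probe set as 1 number, and these deposited log2 values were used as deposited. Of 45101 probe sets 34945 carry 1 symbol, 932 several and 9160 none, and 64 are array controls. Those with 1 symbol were averaged into 18193 genes.

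All 10 arrays entered 1 fit of limma 3.58.1 (R 4.3.3) with a mean per condition, followed by eBayes, two-sided, with Benjamini-Hochberg adjustment over all genes or all 45037 probe sets. Rises and falls are calls at an adjusted p under 0.05, and arrays do not overlap where each of 1 group lies above each of the other. The fit was tested on simulated data. The members and the lists were chosen with earlier results of these data known. Genes were named as the 6 members, up to 6 genes per list and comparison that passed, by smallest adjusted p, and the 3 genes most like each member. Genes outside this rule are marked. Of the genes on the lists, 6 had only probe sets with several symbols and were left out. A further list is not reported here.

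Results were recomputed after quantile normalization or median centring, with only the brightest probe set of a gene, and without probe sets ending in _x_at or _s_at. Further fits left out the 40% of genes with the lowest mean, used an intensity trend (plain or robust), or took the compared conditions alone. Others added a replicate block or the hybridization controls as a covariate, or left out each array in turn. A mean difference over 0.5, the threshold that the methods give for mRNA changes, served as another rule. The methods name a t-test without tying it to single genes, and here an equal-variance t-test was run per gene. Restriction to probe sets above the mean array median was added after seeing the data.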

Additional observations from a re-analysis of the deposited data

Results flagged for a closer look

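In Ctnnd1, differentiated replicate 3 (7.95) lay apart from the other differentiated arrays (8.34 to 8.38), with a gap that is 0.917 of the range of the 4 arrays, above the 95% limit of Dixon's test for 4 values. Of the 6 gene means and 15 probe sets of the members examined in this way, it was the 1 value past the limit, and chance passes it in about 1 of 20 groups. Without that array Ctnnd1 had a log2 difference of 0.14 upon differentiation and -0.49 with 5-AZA, and neither passed by limma.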

How the results depend on the processing

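The fall of Cdh3 upon differentiation, and against undifferentiated keratinocytes with 5-AZA, passed in all 21 alternative fits. Against undifferentiated keratinocytes with A-C/EBP the number of members that passed was 1, Cdh3, in place of 0 with quantile normalization, the brightest probe set, only probe sets above the mean array median (chosen after seeing the data), omission of the dimmest 40% of genes, only the 2 compared conditions, and the replicate block, and 0 to 1 as arrays were left out in turn. With A-C/EBP against differentiated controls, 1 member, Cdh1, had a mean difference over 0.5, and 2 passed the methods' t-test unadjusted. The shares of all genes that met these 2 rules are not given here, so that neither count is shown to be particular to the members. By limma, 2469 of all 18193 genes had an unadjusted p under 0.05 in this comparison.

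Signs turned only for values that did not pass. With median centring, quantile normalization and the control covariate Cdh1 with 5-AZA had -0.031, -0.0145 and -0.0124. With the brightest probe set Ctnnd1 had -0.082 upon differentiation, Ctnnb1 0.15 with A-C/EBP, and Ctnna1, Ctnnb1 and Vcl 0.031, 0.0256 and 0.033 with 5-AZA. With the control covariate Ctnnb1 had 0.0961 with A-C/EBP and Vcl 0.11 with 5-AZA, and against undifferentiated keratinocytes Ctnnd1 had 0.0334 with A-C/EBP and Ctnna1 -0.0129 with 5-AZA. Without probe sets ending in _x_at or _s_at, Ctnnd1 had 0.0091 in A-C/EBP against undifferentiated keratinocytes.

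As arrays were left out in turn, upon differentiation Ctnnd1 lay at -0.0063 to 0.14 and Vcl at -0.0123 to 0.36. With A-C/EBP against differentiated, Ctnna1 lay at -0.0602 to 0.44 and Ctnnb1 at -0.24 to 0.12. With 5-AZA against differentiated, Cdh1 lay at -0.12 to 0.16, Cdh3 at -0.28 to 0.13, Ctnna1 at -0.22 to 0.069, Ctnnb1 at -0.52 to 0.25 and Vcl at -0.68 to 0.43. Against undifferentiated, Ctnnd1 with A-C/EBP lay at -0.0479 to 0.0031, and with 5-AZA Ctnna1 at -0.0311 to 0.26, Ctnnb1 at -0.19 to 0.58 and Vcl at -0.50 to 0.60. Between A-C/EBP and 5-AZA, Ctnnb1 lay at -0.31 to 0.46, Vcl at -0.12 to 0.99 and Cdh3 minus Cdh1 at -0.23 to 0.0755. The cause was not tested.

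Same-numbered arrays of different conditions deviated together at correlations of 0.0931 to 0.430, above 0 in all 12 pairs. Between replicate 1 and replicate 2 of different conditions all were below 0. The 24 pairs of unlike number ranged from -0.563 to 0.563. Differentiated replicate 3 with 5-AZA replicate 2 (0.563) and differentiated replicate 4 with 5-AZA replicate 1 (0.448) exceeded every same-numbered pair. The numbers may therefore not mark which samples belong together, and the replicate block rests on them. The deviations within a group of 2 arrays mirror each other, so that these correlations are not independent. Replicate 2 had higher hybridization controls and higher Xist than replicate 1 in each condition. Because not all 12 were over 0.1, the main fit took the samples as unpaired. Whether same-numbered samples share a preparation was not tested. With the replicate block Cdh3 in A-C/EBP against undifferentiated keratinocytes had an adjusted p of 0.0336, and no other call of a member changed. An array left alone in its group is assumed to vary like those of the other groups. The 95% intervals of the 3 main comparisons reach 0.28 to either side of the difference for Cdh3 and 0.74 for Vcl, with the other members in between, and values below the array medians may be no more than background.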
